A study of Mus musculus with 4 samples.

Results

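The genes described here encode the collagens, laminins and nidogens of the extracellular matrix, the integrins through which cells hold on to it, and enzymes that modify collagen. They were taken by symbol: every probe of the array with 1 gene symbol that begins with Col and a chain number, Lama, Lamb, Lamc, Nid, Itga, Itgb, Plod, P4ha or Lox. That gave 86 genes of the 12817 named on the array, and 69 of them, of 9757 genes in all, had a value on all 4 arrays. Of the other 17, 3 had no value on any array.

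The RNA came from whole mouse gonads at 12.0 days post coitum, dissected free of the adjacent mesonephros, the tissue that borders the gonad. XY Wnt4+/+ gonads (XY wild type) were set against XX Wnt4+/+ gonads (XX wild type) on 2 arrays of spotted oligonucleotides, and XX Wnt4-/- gonads (XX Wnt4 null) against XX wild type on 2 more. Dyes were swapped within each pair, with the XY or null RNA in Cy5 on replicate 1 and in Cy3 on replicate 2. Gonads of many embryos per genotype were pooled in several groups before RNA isolation. The labels leave unsaid if 2 arrays of a pair came from different extracts, so the spread behind the p-values below may be technical. The main fit gives each gene a dye effect, which takes up the gap between replicates 1 and 2 that both comparisons share. What remains is how far that gap differs between the comparisons, moderated by the spread over all genes. Arrays of a pair can thus lie far apart beside a small SE. The sources used here name no strain.

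Every value below is a log2 ratio to XX wild type, or a difference between such ratios, so a positive value means more RNA than in the XX wild type gonad. It compares samples for 1 gene and says nothing of how abundant 1 gene is against another. Each array used XX wild type RNA as its reference, and none set that RNA against itself, so the spread of the reference is left out. Precision is limited by the number of arrays. The direction is likely and not settled. No label names the numerator of the ratio, and as deposited the replicate 1 arrays of the 2 comparisons, which share a dye orientation, correlated at r = -0.62 over 12264 spots. XY replicate 1 had its sign turned: it was deposited with -2.22 for Eif2s3y, a gene of the Y chromosome, and 1.67 for Xist, where XY replicate 2 has 2.25 and -1.22. A second Eif2s3y probe, at -0.64 and -0.46 on the XY arrays as deposited, did not show that opposition. On the Wnt4 null arrays, as deposited, the first Eif2s3y probe read 1.53 and 0.18, the second 0.71 and -1.37, and Xist -0.48 and 0.45. The latter 2 changed sign between the null arrays, so these genes do not settle the direction of the null pair, which was left as deposited.

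Collagens are built from chains that wind into a helix inside the cell, where prolyl hydroxylases (P4ha) and lysyl hydroxylases (Plod) modify them, and lysyl oxidases (Lox) cross-link them after secretion. Collagen IV and the laminins each form a network, joined by nidogens, that makes up the basement membrane. Integrins are receptors of an alpha and a beta chain that bind these proteins and link them to the cytoskeleton. In the fetal testis, Sertoli cells and the peritubular cells around them lay down a basement membrane as the testis cords form.

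Wnt4, the gene removed in the null, was checked first. Its log2 ratio was -1.08 and -1.73 in XY gonads and -0.08 and -0.18 in Wnt4 null gonads. It fell in XY gonads (mean -1.41 ± 0.13, SE of the fit, n = 2 arrays, limma adjusted p = 0.0226). The null gonads lay close to XX wild type, with a mean of -0.13 ± 0.13 (limma adjusted p = 0.748). The sources used here do not place the probe inside or outside the deleted stretch, so the value does not check the genotype.

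In XY gonads 8 matrix and integrin genes rose over XX wild type and 1 fell. Those that rose were the basement membrane chains Col4a1, Col4a2 and Col18a1, the cartilage-type chains Col9a2 and Col27a1, the fibril-associated Col14a1, the integrin chain Itga9 and the lysyl hydroxylase Plod2. The laminin-binding integrin chain Itga6 fell. The 8 that rose are 11.6% of the 69 measured, where 1.79% of all genes tested were called higher, and the 1 that fell is 1.45%, where 1.63% of all genes were called lower. In either direction 9 members (13%) and 3.42% of all genes were called, or 3.33% of all genes with the same sign on both arrays, as the 9 members had. Calls come from 1 limma fit over all genes with a dye term, at a Benjamini-Hochberg adjusted p under 0.05. At an unadjusted p under 0.05 the fit held 23 members (33.3%, against 20.1% of all genes). The other 60 members did not pass. In pooled whole gonads fewer cells of a type and less RNA per cell cannot be told apart, and this holds for every value here. Without the dye term no member and no gene was called, with 10 members and 587 genes (6.02%) at an unadjusted p under 0.05. With each array scaled to a common spread 20 members and 11.1% of all genes were called. With each printed block centred on its own median, 14 members and 6.7% of all genes were called.

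**Figure D1:**
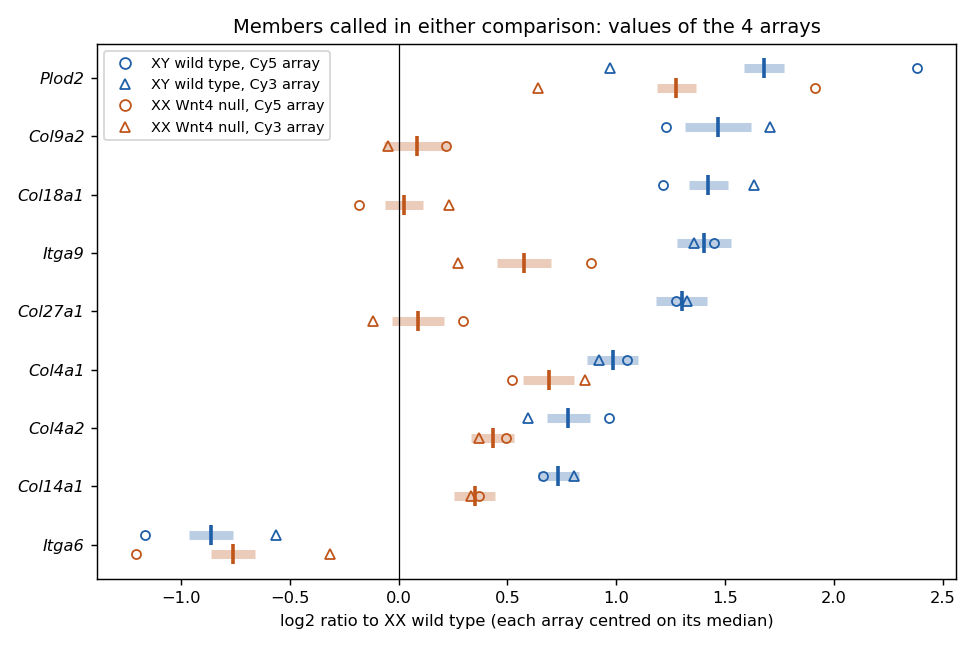
Log2 ratio to XX wild type (horizontal axis) of the 9 members called in either comparison (rows). Circles are arrays with the XY or null RNA in Cy5, triangles those with it in Cy3, vertical ticks the means and shaded bars ± 1 SE of the limma fit. Col9a2, Col18a1 and Col27a1 lie above 1.2 on both XY arrays and within 0.3 of 0 on both null arrays, while Plod2 is above 0.6 on all 4.

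A count that does not use the fit gave the same 8 genes, but it rests on the same XY values and is not independent of the fit. At a limit of 1.5-fold on both XY arrays, those 8 members were higher (11.6%, against 1.5% of all genes) and 0 were lower (1.4% of all genes), where 2.9% of all genes passed in either direction. Regardless of size, 30 of the 69 members were above 0 on both XY arrays (43.5%, against 22.3% of all genes) and 5 were below 0 on both (7.25%, against 21.9%). The remaining 34 had opposite signs on the 2 arrays (49.3%, against 55.8% of all genes). The median log2 ratio of the members was 0.13 and 0.21 on the XY arrays, where the median of all genes was -0.01 and 0.01. The higher values were not spread evenly over the classes: 19 of 32 measured collagens were above 0 on both arrays, against 1 of 10 laminins and nidogens and 2 of 8 integrin beta chains. Whether the classes differ was not tested.

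**Figure D2:**
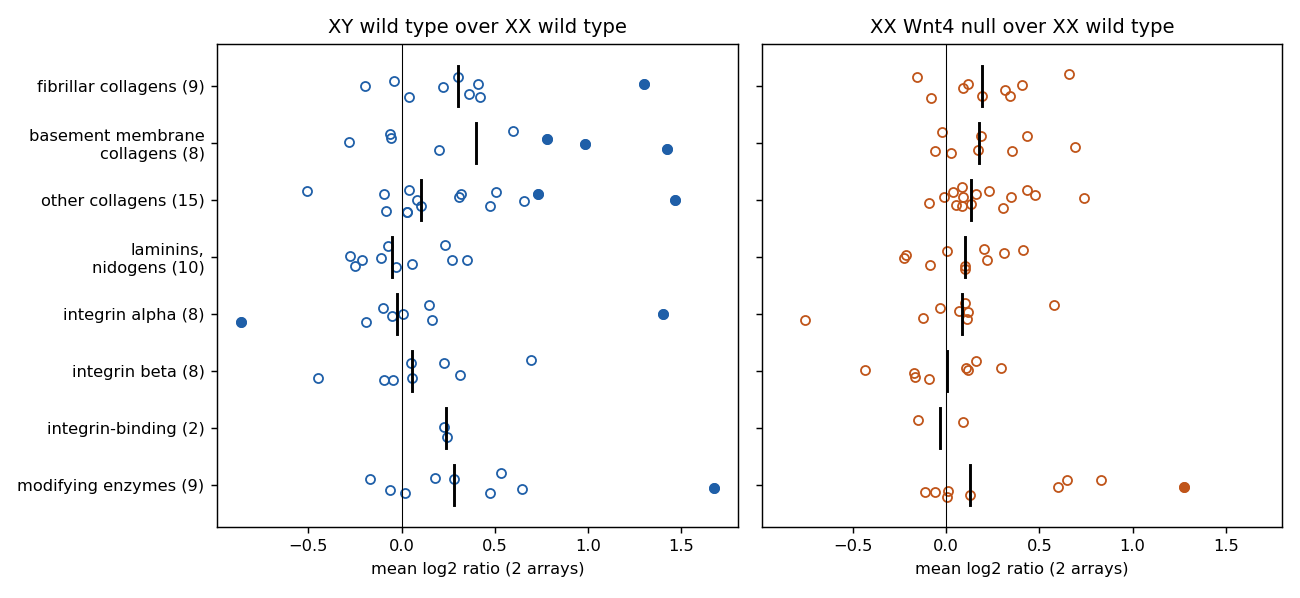
Mean log2 ratio to XX wild type (horizontal axis, 2 arrays) of each of the 69 measured members, by role (rows, number of genes in brackets), in XY gonads (left) and Wnt4 null gonads (right). Filled points passed the limma fit and black bars are class medians, which in XY gonads run from -0.05 for laminins and nidogens to 0.40 for basement membrane collagens.

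Of the 9 basement membrane collagens named on the array 8 were measured, and 3 rose in XY gonads while 0 fell. Col4a1 and Col4a2 encode the chains of the collagen IV found in nearly every basement membrane. Their genes lie head to head on chromosome 8 and are read in opposite directions. The start sites used for the windows below are 21 bases apart. The whole gene models overlap by 85 bases, so the start taken for Col4a1 lies inside its gene model. The promoters of this pair are shown because both genes rose. They are the RefSeq windows of assembly GRCm38.p6, from 250 bases before to 50 bases after each start, written 5′ to 3′ on the gene's own strand. Capitals mark the 78 bases that the windows share, which each gene reads as the other's reverse complement.
Col4a1 promoter, chr8:11312777-11313076 (minus strand): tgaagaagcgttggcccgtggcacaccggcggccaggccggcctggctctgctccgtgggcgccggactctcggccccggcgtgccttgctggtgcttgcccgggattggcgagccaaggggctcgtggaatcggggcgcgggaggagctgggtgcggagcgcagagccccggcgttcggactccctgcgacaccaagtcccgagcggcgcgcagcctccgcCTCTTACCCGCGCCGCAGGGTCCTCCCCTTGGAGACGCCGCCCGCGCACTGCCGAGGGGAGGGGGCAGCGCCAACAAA
Col4a2 promoter, chr8:11312555-11312854 (plus strand): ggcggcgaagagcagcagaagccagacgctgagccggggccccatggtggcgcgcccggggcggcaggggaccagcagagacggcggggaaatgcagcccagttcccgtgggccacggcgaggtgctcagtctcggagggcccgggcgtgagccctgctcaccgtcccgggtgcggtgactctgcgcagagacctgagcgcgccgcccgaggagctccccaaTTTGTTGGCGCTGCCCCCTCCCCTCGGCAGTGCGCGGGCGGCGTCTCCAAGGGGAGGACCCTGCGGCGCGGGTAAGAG

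Col4a1 stood at 1.05 and 0.92 on the XY arrays, a mean of 0.98 ± 0.12 or 1.98-fold (limma adjusted p = 0.0341). Its partner Col4a2 had 0.97 and 0.59, a mean of 0.78 ± 0.10 or 1.72-fold (limma adjusted p = 0.0374). In the null, Col4a1 had 0.52 and 0.86 (mean 0.69 ± 0.12, limma adjusted p = 0.149) and Col4a2 had 0.49 and 0.37 (mean 0.43 ± 0.10, limma adjusted p = 0.218), so that both genes were above 0 on all 4 arrays. For each gene both XY values were above both null values, and the share of all genes of which this holds was not counted. The difference between the comparisons did not pass (limma adjusted p = 0.673 for Col4a1 and 0.559 for Col4a2). The Col4a1 and Col4a2 gene models overlap by 85 bases at their starts, so a probe placed there could read both. Probe positions were not used here.

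Col18a1 encodes a basement membrane collagen whose end fragment is endostatin, an inhibitor of vessel growth. It had 1.21 and 1.63 on the XY arrays, a mean of 1.42 ± 0.09 or 2.68-fold (limma adjusted p = 0.0160), and -0.18 and 0.23 in the null (mean 0.02 ± 0.09, limma adjusted p = 0.948). The XY values were far above those of the null, which lay on either side of 0. Even so, the difference between the comparisons did not pass (limma adjusted p = 0.172). Its nearest relative Col15a1 had 0.33 and 0.86 in XY and -0.12 and 0.83 in the null, and passed in neither (limma adjusted p = 0.0834 and 0.328).

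The collagen IV chains of specialised membranes did not pass. Col4a4 read 0.27 and 0.13 on the XY arrays, Col4a5 read 0.05 and -0.16, and Col4a6 read 0.11 and -0.67, with limma adjusted p from 0.324 to 0.797. The anchoring fibril chain Col7a1 had -0.48 and 0.35. Col4a3, which had no value on XY replicate 1, read 0.87 on XY replicate 2 and -1.07 and 1.22 on the null arrays.

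Among the fibrillar collagens 1 of 9 measured rose in XY gonads and 0 fell. It was Col27a1, a chain known from cartilage, with 1.27 and 1.33 on the XY arrays, a mean of 1.30 ± 0.12 or 2.46-fold (limma adjusted p = 0.0226). In Wnt4 null gonads it had 0.30 and -0.12 (mean 0.09 ± 0.12, limma adjusted p = 0.827). Its groups did not overlap, but the difference between the comparisons did not pass (limma adjusted p = 0.252).

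The main chains of collagen fibrils gave smaller values that did not pass. Col1a1 and Col1a2, which together form collagen I, had means of 0.30 ± 0.12 and 0.42 ± 0.12 in XY gonads (limma adjusted p = 0.283 and 0.169). Col3a1, the collagen III of soft tissues, had 0.52 and 0.21 in XY gonads and 0.74 and 0.58 in the null (limma adjusted p = 0.139 and 0.107). Col5a1 and Col5a2, which set the width of collagen I fibrils, had XY means of 0.41 ± 0.10 and 0.22 ± 0.09. Each of these 5 genes was above 0 on both XY arrays, and Col1a2, Col3a1, Col5a1 and Col5a2 were also above 0 on both null arrays. The cartilage chains Col11a1 and Col11a2 had XY means of -0.20 ± 0.09 and 0.04 ± 0.09, and Col24a1 had -0.04 ± 0.13. Col2a1, the main collagen of cartilage, lacked a value on XY replicate 1 and read 0.91 on XY replicate 2, and -0.60 and 1.26 on the null arrays.

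Of 15 other collagens measured 2 rose in XY gonads, Col9a2 and Col14a1, and 0 fell. Col9a2 is a chain of collagen IX, which coats the fibrils of cartilage. It had 1.23 and 1.71 on the XY arrays, a mean of 1.47 ± 0.15 or 2.77-fold (limma adjusted p = 0.0285), and 0.22 and -0.05 in the null (mean 0.08 ± 0.15, limma adjusted p = 0.883). Its partner chain Col9a1 had 0.83 and 1.13 on the XY arrays and -0.36 on the null array that measured it, and was not tested for want of the other null value. The remaining chain Col9a3 read 0.34 and -0.26 in XY gonads and 0.15 and 0.11 in the null. Of the 3 chains of collagen IX, then, Col9a2 and Col9a1 were above 0.8 on both XY arrays and Col9a3 was not.

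Col9a2 and Col27a1 both lie on chromosome 4, far apart as the positions below show. Their promoter windows are given because both genes were high in XY gonads and near 0 in the null. So was Col18a1, on chromosome 10, whose window is not shown. Capitals mark GGGCGG on either strand, the core of the GC box that Sp1-type factors bind. The Col27a1 window lies inside its gene model, which starts at 63214009.
Col9a2 promoter, chr4:121039316-121039615 (plus strand): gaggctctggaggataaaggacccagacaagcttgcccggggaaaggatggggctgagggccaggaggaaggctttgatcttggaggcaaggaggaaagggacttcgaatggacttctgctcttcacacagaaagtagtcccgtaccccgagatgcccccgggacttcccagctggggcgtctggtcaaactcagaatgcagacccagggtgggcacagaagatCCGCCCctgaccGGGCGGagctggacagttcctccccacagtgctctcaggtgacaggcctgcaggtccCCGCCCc
Col27a1 promoter, chr4:63215162-63215461 (plus strand): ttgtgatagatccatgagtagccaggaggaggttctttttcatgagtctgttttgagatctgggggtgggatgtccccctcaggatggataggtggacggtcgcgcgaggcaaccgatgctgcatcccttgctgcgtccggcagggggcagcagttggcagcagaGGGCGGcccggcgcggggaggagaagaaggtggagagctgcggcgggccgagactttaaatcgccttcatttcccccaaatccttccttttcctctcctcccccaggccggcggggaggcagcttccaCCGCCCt

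It was the only motif searched, on both strands. GGGCGG was in 35.7% of all 32851 windows of the RefSeq table, a share per window. The counts that follow are per gene, with a match in any of its windows, so they cannot be compared with that share. GGGCGG was in 29 of the 48 measured members that had a window. It was in 5 of the 6 called members with a window, and not in that of Itga9. The 1 match in the Col4a1 window lies in the 78 bases shared with Col4a2, so that site counts for both genes. A share per gene over all genes was not taken, so whether 5 of 6 is high was not tested. A match describes the sequence and is not evidence of binding.

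Col14a1, a fibril-associated collagen of connective tissue, had 0.66 and 0.81 on the XY arrays (mean 0.73 ± 0.09 or 1.66-fold, limma adjusted p = 0.0383) and 0.37 and 0.33 on the null arrays (mean 0.35 ± 0.09, limma adjusted p = 0.271). Both XY values were above both null values, but the difference between the comparisons did not pass (limma adjusted p = 0.500). A second Col14a1 probe, without a value on XY replicate 1, did not match the first: it read 0.23 on XY replicate 2 and -0.23 and -0.05 on the null arrays.

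Collagen VI makes beaded filaments of the chains Col6a1, Col6a2 and Col6a3. Col6a1 was above 0 on all 4 arrays, with 0.49 and 0.82 in XY gonads and 0.29 and 1.18 in the null, but passed in neither (limma adjusted p = 0.0901 and 0.158). Col6a2 read -0.36 and 0.997 in XY gonads and -0.61 and 1.47 in the null, and Col6a3 read -0.82 and -0.20 in XY gonads and -1.01 and 0.83 in the null. In both comparisons the 3 chains had their lower value on replicate 1 each time. Also short of the threshold were Col13a1, a collagen that spans the cell membrane (0.18 and 0.83 in XY, limma adjusted p = 0.0749), and Col16a1 (0.13 and 0.82, limma adjusted p = 0.136). The other 8 collagens of this class, Col8a1, Col10a1, Col17a1, Col20a1, Col23a1, Col25a1 and Col26a1 together with Col9a3, had XY means from -0.10 to 0.31.

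None of the 10 laminins and nidogens measured passed in XY gonads, and 1 of them was below an unadjusted p of 0.05. Lama1, Lamb1 and Lamc1, whose products form the laminin of early basement membranes, had XY means of -0.21 ± 0.13, 0.23 ± 0.11 and -0.07 ± 0.10. Only Lamb1 of these was above 0 on both XY arrays, at 0.41 and 0.05. Lama5, the alpha chain of most later epithelial membranes, had 0.03 and -0.10. Nid1 and Nid2, the linkers of laminin and collagen IV, had means of 0.35 ± 0.10 and -0.25 ± 0.09. Their signs differed between the means, and Nid2 was below 0 on both XY arrays, at -0.33 and -0.17 (limma adjusted p = 0.249). Lama2, the laminin chain of muscle, had -0.48 and 0.59, Lama4, that of vessels, had -0.58 and 1.11, Lamb2 had 0.26 and -0.49, and Lamb3 had -0.78 and 0.23. In 8 of the 10 genes the XY arrays had opposite signs, as in 55.8% of all genes. The fit called a dye effect in 6 of the 10, and in 23.2% of all genes. Whether laminin genes differed from Col4a1 and Col4a2 was not tested.

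Integrin alpha chains gave 1 gene that rose in XY gonads and 1 that fell, of 8 measured. Itga9 pairs with the beta chain Itgb1 and binds tenascin C among other ligands. It read 1.45 and 1.36 on the XY arrays, a mean of 1.40 ± 0.12 or 2.65-fold (limma adjusted p = 0.0225), and 0.88 and 0.27 on the null arrays (mean 0.58 ± 0.12, limma adjusted p = 0.206). Both XY values were above both null values, and all 4 were above 0. Here too the difference between the comparisons did not pass (limma adjusted p = 0.386). Tnc, which encodes tenascin C, read -0.44 and 0.83 in XY gonads and 0.42 and 2.07 in the null (limma adjusted p = 0.0592).

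Itga6 pairs with Itgb1 or Itgb4 as a receptor for laminin. It had -1.16 and -0.56 on the XY arrays, a mean of -0.86 ± 0.10, so that it fell 1.82-fold (limma adjusted p = 0.0337). In Wnt4 null gonads it had -1.21 and -0.32 (mean -0.76 ± 0.10, limma adjusted p = 0.102). The values of the 2 comparisons overlap, and replicate 1 was the lower of each pair. Its partner Itgb1 had 0.54 and 0.09 in XY gonads and 0.35 and -0.12 in the null, and Itgb4 had -0.07 and 0.52, then -0.14 and 0.35. Germ cells and epithelial cells of the mesonephric duct are other cells a gonad preparation can hold, and their markers are given beside Itga6. All 5 measured of 6 germ cell markers were below 0 on both XY arrays, as 21.9% of all genes were. Their array medians were -0.67 and -0.46, and Dazl and Stra8 fell. In the null the germ cell medians were -0.38 and 0.15. There 2 of these markers, Stra8 (-0.70 and -1.39) and Dazl, were below 0 on both arrays, and 3 had opposite signs. The duct markers were mixed: of 5 measured Krt18 and Cldn7 fell in XY gonads, while Lhx1 read -0.19 and 0.76 and Epcam -0.30 and 0.44. Duct medians were -0.30 and -0.0003 in XY gonads and -0.28 and 0.42 in the null. There Krt18 was below 0 on both arrays, at -0.57 and -0.49 (limma adjusted p = 0.144), and the other 4 had opposite signs. The part of either cell type in the Itga6 values was not tested.

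The remaining integrin chains did not pass in XY gonads. Itgb5, which joins Itgav as a vitronectin receptor, read 0.80 and 0.58 on the XY arrays and -1.12 and 0.25 in the null, with an error of 0.28 on each mean (limma adjusted p = 0.282 and 0.609). Itga3, Itga5 and Itga7, alpha chains that bind laminin or fibronectin, had XY means of -0.05, -0.10 and 0.01. The leukocyte chains gave 0.06 for Itgb2, 0.16 for Itgal and -0.19 for Itgax, as XY means. Itgb3, a chain of platelets and other cells, had -1.66 and 0.76 in XY gonads and -1.77 and 1.44 in the null. Its sign followed the dye and not the sample. Itgav, Itgb6, Itgb7 and Itgb2l had XY means of 0.15, -0.04, -0.10 and 0.05. The integrin-binding proteins Itgb1bp2 and Itgb3bp, which are not integrin chains, had XY means of 0.25 and 0.23.

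Of 9 modifying enzymes 1 rose in XY gonads and 0 fell. Plod2 hydroxylates lysines in the end regions of collagen chains, a step that sets the kind of cross-link. It had 2.38 and 0.97 on the XY arrays, a mean of 1.68 ± 0.09 or 3.20-fold (limma adjusted p = 0.0145). In Wnt4 null gonads it had 1.91 and 0.64, a mean of 1.28 ± 0.09 or 2.42-fold, and rose there too (limma adjusted p = 0.0451). On each pair the array with Cy5 on the XY or null RNA gave the higher value, a dye effect of 0.67 (limma adjusted p = 0.0170). The relatives Plod1 and Plod3 had XY means of 0.18 ± 0.13 and 0.02 ± 0.09.

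The lysyl oxidases and prolyl hydroxylases gave smaller values. Loxl2, which can cross-link collagen IV, had 0.92 and 0.37 in XY gonads and 0.71 and 0.49 in the null (limma adjusted p = 0.0610 and 0.157). Loxl1, known for cross-linking elastin, had 0.23 and 0.84 in XY gonads and 0.37 and 1.29 in the null (limma adjusted p = 0.0845 and 0.0894). Both were above 0 on all 4 arrays without passing. Lox itself read -0.11 and 0.67, then 0.42 and 0.88, and Loxl3 had an XY mean of -0.06. P4ha1, a catalytic chain of prolyl hydroxylase, had 0.26 and 0.69 in XY gonads and -0.33 and 0.10 in the null (limma adjusted p = 0.0809 and 0.669), while its relative P4ha2 had -0.22 and -0.12, then -0.21 and 0.09.

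In Wnt4 null gonads 1 member, Plod2, rose over XX wild type and 0 fell, which is 1.45% of the 69 measured against 0.143% of all genes called higher and 0.0615% called lower. The fit held 19 members at an unadjusted p under 0.05 (27.5%, against 12.6% of all genes). At 1.5-fold on both null arrays Plod2 was again the only member (1.45%, against 0.584% of all genes higher and 0.512% lower, 1.1% in all). There were 18 members above 0 on both null arrays (26.1%, against 16% of all genes) and 2 below 0 on both, Itga6 and Itgb2. The other 49 had opposite signs on the 2 arrays (71%, against 68.3% of all genes). Over the 4 arrays of both comparisons, 14 members were above 0 on each (20.3%, against 7.86% of all genes). Only Itga6 was below 0 on each (1.45%, against 7.67%). The medians of the members were 0.01 and 0.25 on null replicates 1 and 2. Without the dye term 0 members and 0 genes were called, with 6 members and 294 genes (3.01%) at an unadjusted p under 0.05. The call list depended on scaling. Centred by printed block, Col3a1, Col4a1, Col6a1, Loxl1 and Plod2 were higher and Itga6 lower, where 1.83% of all genes were called. Scaled to a common spread, Col3a1, Loxl1 and Plod2 were higher and Itga6 lower, where 1.41% of all genes were called.

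The difference between the comparisons was tested within the same fit, as XY minus Wnt4 null. In limma no member passed, nor did any of the 9757 genes, whether or not dye was a term. At an unadjusted p under 0.05 there were 8 members (Col14a1, Col18a1, Col27a1, Col9a2, Itga9, Itgb5, P4ha1 and Plod2) and 920 genes (9.43%). With dye left out there were 4 members (Col18a1, Col27a1, Col9a2 and Itga9) and 160 genes (1.64%). Both comparisons take XX wild type as their reference, and the labels do not say whether the pools were the same. Their values may thus share its error and are given side by side. Col18a1 had the smallest p of the members, with a difference of 1.40 ± 0.12 (limma adjusted p = 0.172). Col9a2 and Col27a1 followed, with differences of 1.38 ± 0.22 (limma adjusted p = 0.292) and 1.21 ± 0.17 (limma adjusted p = 0.252). Itga9 differed by 0.83 ± 0.18, P4ha1 by 0.59 and Plod2 by 0.40 ± 0.13. With arrays scaled to a common spread Col18a1, Col27a1 and Col9a2 passed, where 0.738% of all genes did. With blocks centred Col18a1 passed, where 0.297% of all genes did.

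**Figure D3:**
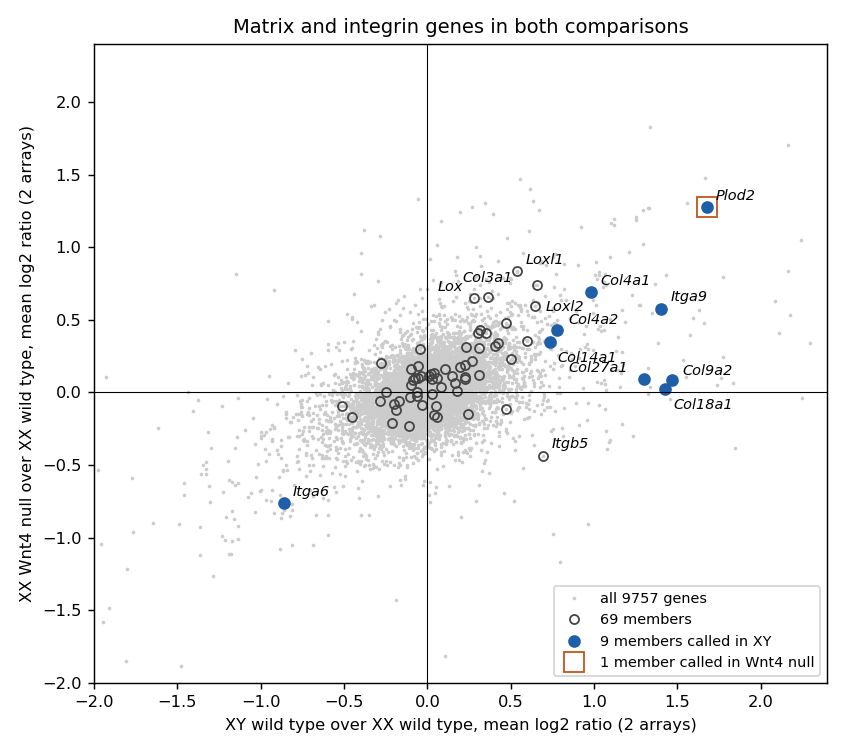
Mean log2 ratio to XX wild type in XY gonads (horizontal axis) against that in XX Wnt4 null gonads (vertical axis), 2 arrays each, for all 9757 genes (grey, a few beyond the axes are not drawn) and the 69 members (circles). Filled points passed in XY gonads and the square marks Plod2, which also passed in the null. Col18a1, Col9a2 and Col27a1 lie at the right near the horizontal line, Itga9, Col4a1, Col4a2 and Col14a1 above it, and Itga6 at lower left.

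Over 12264 spots, arrays of the same dye orientation correlated at 0.62 for replicate 1 and 0.678 for replicate 2 across the comparisons, while the dye-swapped arrays of a pair correlated at 0.0561 for XY and -0.456 for the null. The fit called a dye effect in 22 members (31.9%, against 23.2% of all genes). The largest were in Itgb3, Lama4 and Itgb7, at -1.41, -1.01 and -0.93, which were below 0 with Cy5 on the XY or null RNA and above 0 with Cy3. The dye term removes a bias that is the same in both comparisons and not a part that differs between them. Its part in the values of single genes beyond that was not tested.

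**Figure D4:**
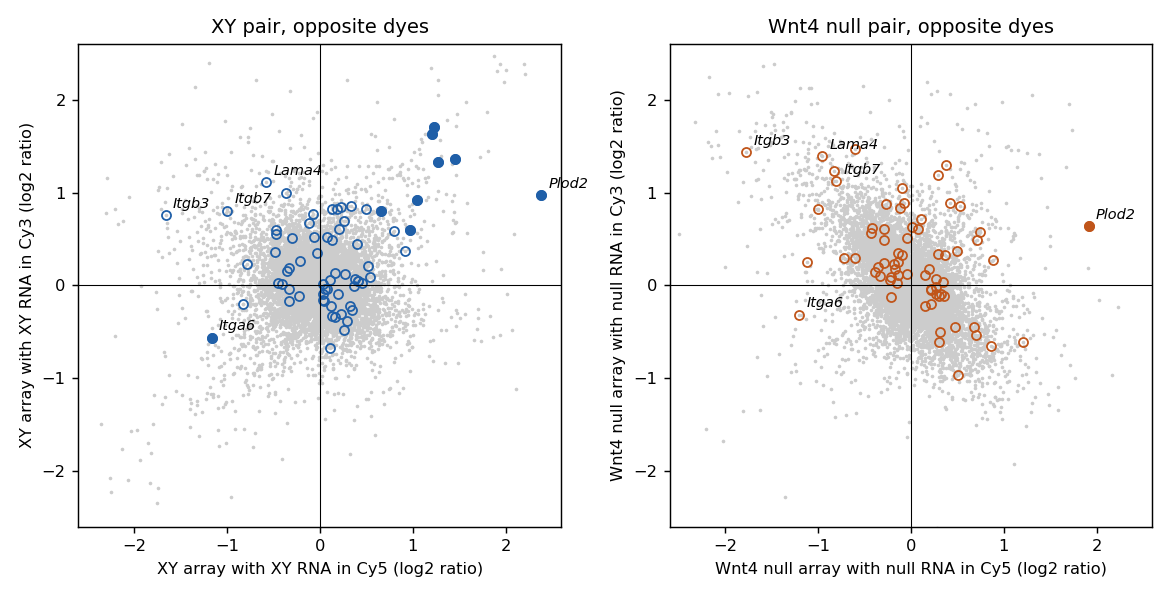
Log2 ratios of the 2 dye-swapped arrays of each pair, replicate 1 (horizontal axis) against replicate 2 (vertical axis), for XY gonads (left) and Wnt4 null gonads (right). Grey points are all genes within the axes, circles the 69 members and filled circles the called ones. Genes with the same sign on both arrays lie at upper right or lower left; 49 of 69 members do not in the null pair, with Itgb3, Lama4 and Itgb7 at upper left in both panels.

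Of the 17 members without all 4 values, 2 had both XY values, Col9a1 as given and Itgb1bp1 with -0.83 and 0.57. There were 8 with both null values, and 7 of these had opposite signs on the 2 arrays. Itga8, an alpha chain of mesenchyme, was the other, at -0.65 and -0.10 in the null and -0.06 on XY replicate 1. Itga4 and Itgam, chains of blood cell integrins, swung from -1.23 to 1.29 and from -1.33 to 1.39 on the null arrays. Loxl4 read -0.14 on XY replicate 2 and -0.35 and 0.22 in the null. Col5a3, Col19a1, Itga2b, Itgae, Itgbl1 and Lamc3 had 1 to 3 values each, between -0.64 and 1.14. Col6a4, Itga2 and Lama3 had none.

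Other genes of matrix assembly and adhesion mostly did not pass. Over all genes 3.42% were called in XY gonads and 22.3% were above 0 on both XY arrays. Of 10 measured genes for collagen folding, secretion and trimming 0 were called there. Among them 7 were above 0 on both XY arrays, and the median of the 10 was 0.26. Pcolce, which speeds the trimming of procollagen, had 0.61 and 0.64 (limma adjusted p = 0.0548), and Serpinh1, the collagen chaperone, had 0.13 and 0.42. Of 13 other matrix ligands Bgn, a proteoglycan that binds collagen fibrils, rose, with 0.50 and 1.02 in XY gonads (mean 0.76 ± 0.09, limma adjusted p = 0.0346). Of 15 adhesion partners and other receptors Sdc4, a membrane proteoglycan that acts with integrins, rose, with 0.92 and 0.66 (mean 0.79 ± 0.11, limma adjusted p = 0.0474). Hspg2, the perlecan of basement membranes, read -0.35 and 0.98. In the null 0 genes of these lists passed, where 0.205% of all genes did.

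Marker lists of the cells a gonad preparation can hold gave values beside these, and their part in the result was not tested. The calls among them stand beside 3.42% of all genes in XY gonads and 0.205% in the null. All 5 stroma markers were above 0 on all 4 arrays, as 7.86% of all genes were. Their medians were 0.72 and 0.92 in XY gonads and 0.73 and 0.94 in the null, and Pdgfra, Tcf21 and Mfap4 rose in XY gonads. Of 5 Sertoli markers Sox9, Cst9 and Ptgds rose in XY gonads, and the medians were 0.99 and 0.88 there and 0.27 and -0.14 in the null. Vessel markers gave 0 of 8 called, with medians of 0.19 and 0.09 in XY gonads and -0.09 and 0.26 in the null. Macrophage markers had medians of -0.05 and -0.01 in XY gonads and 0.43 and 0.66 in the null, with 0 of 5 called in either. At an unadjusted limma p under 0.05 there were 5 of 5 in the null (12.6% of all genes) and 0 in XY gonads (20.1%). Of 5 muscle and skeleton markers 0 passed, and Acan and Comp, which mark cartilage, had XY means of 0.06 and -0.09 beside the cartilage-type chains Col9a2 and Col27a1. Platelet and red cell markers, 3 measured of each, gave 0 calls. Gata4 and Lhx9, the gonadal markers measured, had XY means of 0.30 and -0.53, and ratios do not show whether a marker is present or at 0.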

How the data were processed

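Total RNA of mouse gonads was hybridised on 4 two-colour arrays. The authors deposited 1 log2 ratio per spot and array; base 2 was read from the lowest value of XY replicate 1, -6.64 at 6 spots, the log2 of a ratio of 0.01, and assumed for the others. Scale is thus inferred and direction likely. Deposited medians were -0.0019, -0.0172, 0.0084 and -0.0388 (XY replicates 1 and 2, Wnt4 null replicates 1 and 2), so arrays were centred by a method not given in the sources used here. No intensities were analysed here, so background and dim spots could not be filtered. Of 17664 spots, 12866, 13967, 14131 and 14533 had values.

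Gene names came from the platform annotation (14010 probes with 1 symbol, 13 with several, 3641 with none; 13908 matched RefSeq GRCm38.p6 by Entrez identifier). Spot numbers match that annotation only if, within printed blocks of 552 spots, row and column numbers are exchanged. Every gene name rests on that exchange, which the values themselves had shown. First and second probes of a gene then correlated at Spearman rho = 0.309 in XY gonads (529 genes) and 0.155 in the null, against -0.0058 and 0.0062 in the deposited order (495 genes).

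XY replicate 1 was turned, arrays were centred on their medians and 10442 probes averaged to 9757 genes. One fit in limma 3.58.1 (R 4.3.3, lmFit, eBayes) had a coefficient per comparison and a dye term. It had 1 residual degree of freedom, 3.374 prior degrees of freedom drawn from all genes and a median SE of 0.0957. Without the dye term, an alternative, these are 2, 2.202 and 0.184. Tests are two-sided, called at a Benjamini-Hochberg adjusted p under 0.05 over all genes. The procedure was tested on simulated data. Members, lists and the dye term were chosen with earlier results of these data known. Genes named are those called, then those with 1 sign on both arrays by size, up to 15 each way, and partner chains. Centring, scaling, direction, probes, limits and arrays left out were varied.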

Additional observations from a re-analysis of the deposited data

How the results depend on the processing

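With each array centred as deposited, or with a fit over single probes, all 10 calls named (9 in XY gonads and Plod2 in the null) held, as they did with blocks centred or arrays scaled. Blocks centred gave 14 members called in XY gonads, 6 in the null and 1 in their difference, and 4 past 1.5-fold in the null. The shares of all genes were 6.7%, 1.83%, 0.297% and 1.21%. Arrays scaled gave 20, 4 and 3, and 0 past 1.5-fold in the null, with shares of all genes of 11.1%, 1.41%, 0.738% and 0.81%. All 10 calls were lost, with 0 members called in either comparison, without the dye term and under each other direction. Leaving out any 1 array (0 to 0; the lone array is assumed to vary like the others) or fitting each comparison alone also gave 0, but these fits had to drop the dye term as well, so they do not show what the array or the separate fit alone would change. All columns as deposited left 2 members past 1.5-fold in XY gonads, where 1.8% of all genes passed, and a median of 0.0503. Col4a1 was then at -0.0639, Col4a2 at -0.19, Itga6 at 0.30, Itga9 at -0.0472 and Plod2 at -0.71. Read as Cy3 over Cy5, 8 members and 5.69% of all genes passed 1.5-fold in the null, with Plod2 at -0.64. Read as Cy5 over Cy3, 8 passed there too, the medians were -0.15 and -0.17 in XY and null gonads, and XY means were -0.73 for Col14a1, -1.42 for Col18a1, -1.30 for Col27a1, -0.98 for Col4a1, -0.78 for Col4a2, -1.47 for Col9a2, 0.86 for Itga6, -1.40 for Itga9 and -1.68 for Plod2. A lower fold limit gave 14 and 8 members in XY and null gonads, and a limit of 2-fold gave 4 and 0. On single arrays 15 to 23 members passed 1.5-fold in XY gonads, beside 11.3% to 12.2% of all genes. In the null 18 to 24 members passed, beside 12.1% to 16% of all genes. The XY median of the members ran from 0.13 to 0.21. Causes were not tested. The labels number no replicates, but the dye orientations pair the arrays across the comparisons, and the dye term acts as a block over those pairs.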

Other observations

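Probes of the same gene did not always read alike. Itgav, the alpha chain shared by several matrix receptors, averaged 0.15 and 0.12 in XY and null gonads, from a probe with -0.27, 0.56, -0.52 and 1.20 (XY replicates 1 and 2, then null replicates 1 and 2) and a probe with 0.59, -0.29, 0.32 and -0.54. The signs of these probes were opposite on every array, and each probe changed sign between the dye orientations. The 2 probes of Plod1 read 0.08, 0.39, 0.10 and 0.18, and 0.66, -0.42, 0.84 and -1.07, so the second swung with the dye while the first did not. For Itgb1 and Itgb6 the 2 probes had the same sign as each other on each of the 4 arrays.

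Among members that lie next to each other, values went together in some places and not in others. Col3a1 and Col5a2, 24624 bases apart on chromosome 1, were both above 0 on all 4 arrays. Col6a1 and Col6a2, 85161 bases apart on chromosome 10, had opposite signs on replicate 1 of each comparison. The head-to-head genes Col4a5 and Col4a6, 1274 bases apart on chromosome X, had XY means of -0.06 and -0.28. These are descriptions of a few neighbours and no test was run.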
